A study of Mus musculus with 4 samples.

Results

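The genes described here are 9 genes through which a pancreatic beta cell takes up glucose, turns its metabolism into an electrical signal and releases insulin, together with genes used as signs of beta cell maturity: Slc2a2, Abcc8, Kcnj11, G6pc2, Slc30a8, Glp1r, Trpm5, Ucn3 and Sytl4. They were chosen by name for these roles and are 9 of the 54532 genes in the files. All 9 reached 1 FPKM (fragments per kilobase of exon and per library size, a level per length) at 1 or more stages, as did 14841 genes in all. Glp1r and Trpm5 did so at E18.5 and at no earlier stage. RNA was sequenced from the fetal pancreas of wild-type (WT) C57BL/6 mice at embryonic days E11.5 and E13.5 and, later, E15.5 and E18.5, and each stage has 1 sample. The series calls the material epithelium; the sources used here do not say how it was isolated, how many embryos were pooled or of which sex. No sample was treated, and the stages differ in age alone as far as the labels say.

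In a mature mouse beta cell, glucose enters through the transporter encoded by Slc2a2 (GLUT2) and is metabolized. Metabolism raises ATP, which closes a potassium channel built from the pore subunit of Kcnj11 (Kir6.2) and the sulfonylurea receptor subunit of Abcc8 (SUR1); the membrane depolarizes, calcium enters and insulin granules fuse with the membrane. G6pc2 encodes a glucose-6-phosphatase subunit that turns glucose-6-phosphate back into glucose, Slc30a8 the zinc transporter of the insulin granule (ZnT8), Glp1r the receptor for the incretin hormone GLP-1, and Trpm5 a cation channel opened by calcium. Sytl4 encodes granuphilin, which docks granules at the membrane. Ucn3 encodes urocortin 3, a peptide stored in mouse beta cells that is widely used as a marker of their maturity.

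The deposited values are means, and the low values showed that each mean was built from whole reads of 2 libraries, which could be separated again for all 9 genes at all 4 stages. Levels below are FPKM scaled by a median-of-ratios factor per stage, as mean ± SD of these 2 libraries. The libraries have no label of their own, so the SD and every p-value measure the spread between them, which may be technical. The estimated depth was 1.37e+07 to 1.80e+07 reads per library. The E18.5 and E15.5 samples held the hormones and enzymes of the pancreas (Ins2 at 5323 and 614.4 FPKM, the acinar zymogen gene Ctrb1 at 11953 and 37973 FPKM). The E11.5 sample stood apart. Pdx1, the transcription factor that marks pancreatic epithelium, was at 2.93 FPKM there against 60.6 to 79.0 FPKM later, and Ptf1a, a factor of early pancreatic progenitors and acinar cells, was at 0.603 FPKM against 22.2 to 119.3 FPKM. In the same sample the 10 listed markers of neurons, neural crest and glia summed to 1295 FPKM (13.8 to 58.4 FPKM later), 7 erythroid markers to 9532 FPKM (175.6 to 322.3 FPKM later) and 10 mesenchymal markers to 226.0 FPKM (46.8 to 80.4 FPKM later). None of the 7 endothelial markers reached 1 FPKM at any stage. The part of these other cells in the differences from E11.5 was not tested; the steps from E13.5 to E15.5 and from E15.5 to E18.5 take no level from that sample.

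Promoter windows of 250 bases before to 50 bases after a start site were given by RefSeq (build GRCm38.p6) for 6 of the 9 genes, with 7 windows in all. A search of both strands was made for 3 short motifs: TAAT (or ATTA), the core bound by homeodomain factors such as Pdx1; CAGATG (or CATCTG), an E-box bound by factors such as Neurod1; and TGCTGA (or TCAGCA), part of the site bound by Maf factors. No match in the windows shown overlaps a match of another motif. Of 32851 windows of this length, 58.0% held the first, 17.2% the second and 19.5% the third, so TAAT in a window is common. The windows of G6pc2 and Ucn3, which held the most matches, and that of Slc2a2, whose level moved in the most uneven way, are shown 5′ to 3′ on the gene's strand, with each match in capitals.
G6pc2, chr2:69219699-69219998, plus strand: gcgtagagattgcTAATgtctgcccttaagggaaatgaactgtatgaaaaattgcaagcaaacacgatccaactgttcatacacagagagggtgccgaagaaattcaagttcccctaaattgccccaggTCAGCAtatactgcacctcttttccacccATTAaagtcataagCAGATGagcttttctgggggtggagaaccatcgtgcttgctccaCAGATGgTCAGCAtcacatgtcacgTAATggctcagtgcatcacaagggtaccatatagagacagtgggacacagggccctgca
Ucn3, chr13:3945300-3945599, minus strand: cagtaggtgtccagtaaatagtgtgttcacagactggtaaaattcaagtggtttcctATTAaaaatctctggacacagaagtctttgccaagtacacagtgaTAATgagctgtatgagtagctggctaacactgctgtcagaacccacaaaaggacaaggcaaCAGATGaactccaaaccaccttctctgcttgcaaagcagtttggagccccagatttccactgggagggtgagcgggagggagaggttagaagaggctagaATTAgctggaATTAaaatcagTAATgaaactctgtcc
Slc2a2, chr3:28697653-28697952, plus strand: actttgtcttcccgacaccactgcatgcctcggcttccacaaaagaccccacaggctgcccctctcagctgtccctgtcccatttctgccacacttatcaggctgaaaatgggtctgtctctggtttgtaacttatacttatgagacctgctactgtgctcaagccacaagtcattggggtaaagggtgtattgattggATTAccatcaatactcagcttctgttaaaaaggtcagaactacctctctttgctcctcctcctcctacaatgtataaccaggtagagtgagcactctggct
The G6pc2 window covers the annotated start of its protein-coding transcript and held 3 TAAT, 2 CAGATG and 2 TGCTGA matches. The Ucn3 window held 5 TAAT and 1 CAGATG match, and the Slc2a2 window 1 TAAT match. A second G6pc2 window, at the start of a longer transcript without coding annotation, and the Trpm5 window held 1 TAAT match each. The windows of Glp1r and Sytl4 held none of the 3. A match is a run of letters and does not show that a factor binds there.

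The 9 genes reached 1 FPKM at different stages. None reached 1 FPKM at E11.5. The number was 5 by E13.5, 7 by E15.5 and 9 by E18.5, and their summed level went from 2.004 to 29.0, 33.2 and 250.03 FPKM. The channel genes and the glucose transporter were the highest of the 9 at E13.5, in the order Abcc8, Slc2a2, Kcnj11. At E18.5 the order was Slc30a8, G6pc2, Abcc8, Slc2a2, Sytl4, Ucn3, Kcnj11, Glp1r and Trpm5, and no gene's libraries overlapped those of its neighbour in that order. At E13.5 the libraries of Ucn3 and Sytl4 overlapped, and at E15.5 those of Slc2a2 and Ucn3. At E11.5, Sytl4, Slc30a8, G6pc2, Trpm5 and Glp1r could not be ordered. In RNA from a mixture of cells, fewer cells of a type and less RNA per cell cannot be told apart, which holds for every difference below.

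**Figure D1:**
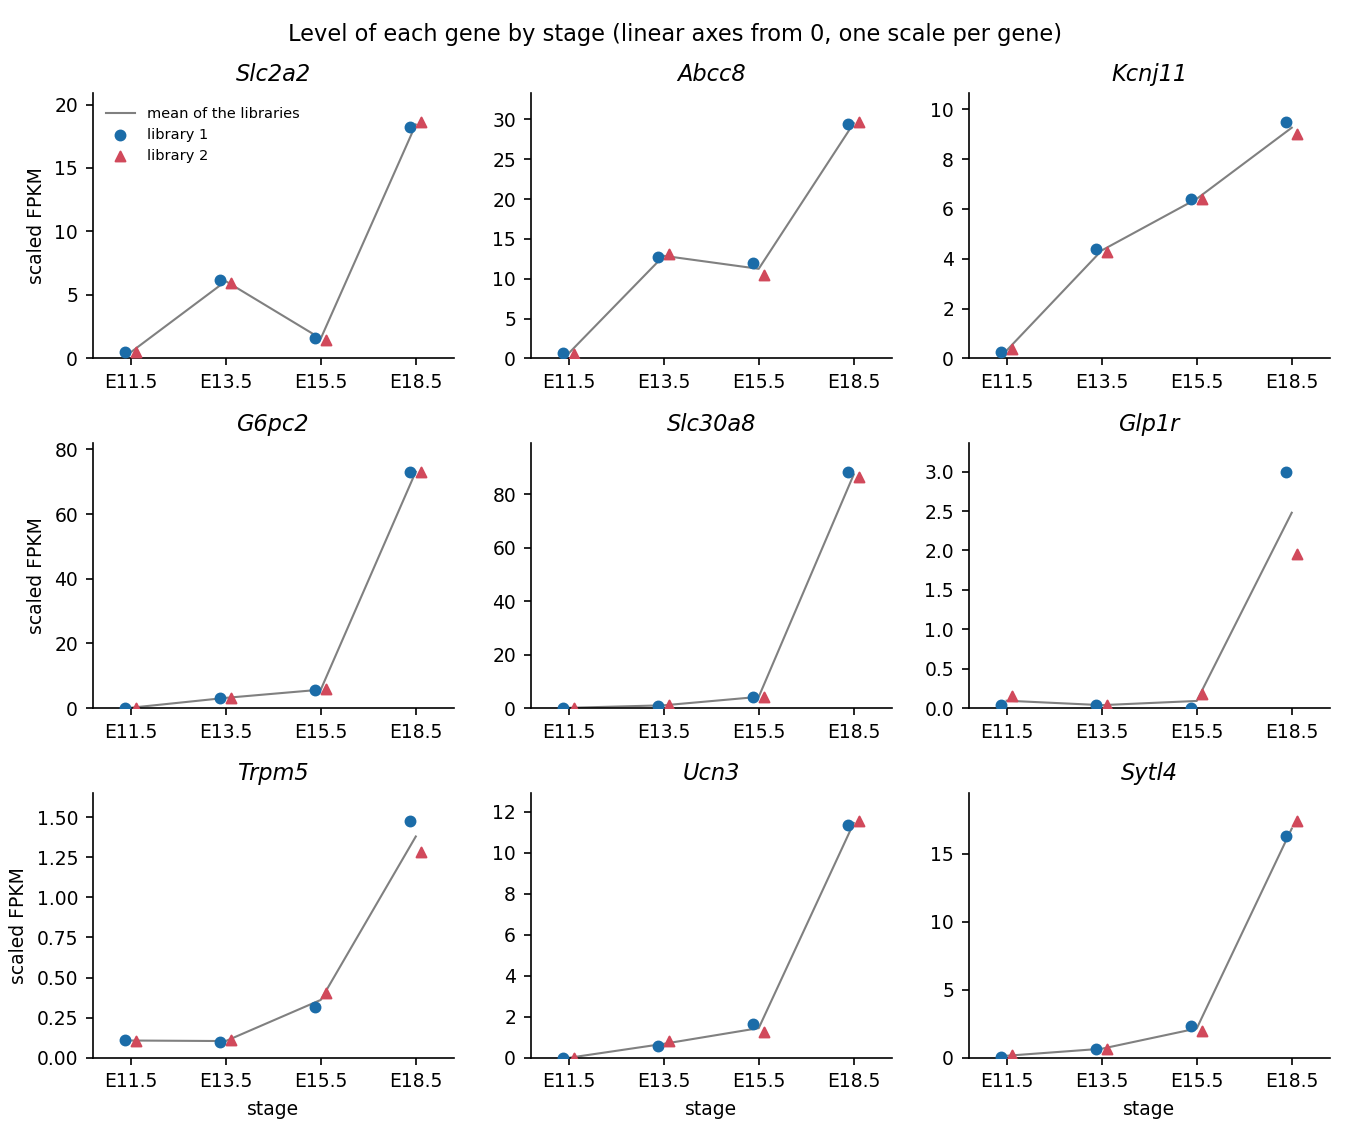
Scaled FPKM (y axis, linear from 0, a separate scale for each gene) at 4 stages (x axis); circles and triangles are the 2 libraries of a stage and the line joins their means. Slc2a2 went down between E13.5 (6.08) and E15.5 (1.56) before its highest level at E18.5 (18.4), Kcnj11 went up at every step, and G6pc2 and Slc30a8 went from under 6 to over 70 FPKM in the last step.

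Slc2a2 (ENSMUSG00000027690, chromosome 3, 28697903 to 28731359, plus strand, mm10 as all coordinates here) stood at 0.480 ± 0.0191 FPKM in the E11.5 sample, 6.08 ± 0.151 in the E13.5 sample, 1.56 ± 0.117 in the E15.5 sample and 18.4 ± 0.291 in the E18.5 sample (SD, n = 2 at each stage). Both E15.5 libraries, with 122 and 95 reads, lay below both E13.5 libraries, with 681 and 581 reads, and above both E11.5 libraries, so the transporter gene dipped at E15.5 without going back to its E11.5 level. The level was 3.89-fold lower at E15.5 than at E13.5, and the fall passed the test (log2 difference -1.47, SE 0.0548, adjusted p = 1.14e-05, limma on log2(scaled FPKM + 1), a scale that understates changes of low genes). The last step was 11.8-fold upward (95% counting interval 10.3 to 13.6; adjusted p = 9.91e-07, limma). The intervals given with folds cover counting error only. Slc2a1, the gene of the widely expressed transporter GLUT1, kept between 14.3 and 29.5 FPKM over the 4 stages. In stage order its level was 42.8, 2.35, 10.8 and 1.60 times that of Slc2a2.

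Slc2a2 was the single gene of the 9 that was both at least 2-fold lower and at 5 FPKM or more on the higher side in the step from E13.5 to E15.5. Of all genes measured, 2.06% were lower by this rule of size in that step and 4.29% were higher. Markers of other cell types also changed in that step. Of 5 measured markers of trunk and duct cells, the epithelium from which endocrine cells arise, 4 were lower by the same rule. Krt19 was not. In the last step 4 were higher (7.3% of all genes were) and Onecut1 was not. Their summed level went from 4653 to 1887 and then to 17361 FPKM at E18.5, as Slc2a2 did in direction. Spp1 was the most abundant of them. Sox9, a factor of trunk cells, went from 123.1 to 48.4 and back to 124.9 FPKM. The 8 acinar markers summed to 4600, 105530 and 49024 FPKM at the same stages. Among 12 pan-endocrine markers, 2 were lower and 1 higher between E13.5 and E15.5, and all 12 were higher between E15.5 and E18.5. The part of each of these cell types in the course of Slc2a2 was not tested.

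Abcc8 (ENSMUSG00000040136, chromosome 7, 46104523 to 46180033, minus strand) encodes the regulatory subunit of the ATP-sensitive channel. It began at 0.631 ± 0.0329 FPKM (E11.5), reached 12.9 ± 0.300 by E13.5 and 11.2 ± 1.02 by E15.5, and ended at 29.5 ± 0.214 (E18.5). It was thus already high at E13.5, 20.4-fold above E11.5 (17.6 to 23.8), and stayed near that level to E15.5. The difference between E13.5 and E15.5 passed the test narrowly (log2 difference -0.18, SE 0.0620, adjusted p = 0.0449, limma), and it did not pass when any library but the first E15.5 library was left out (adjusted p 0.0698 to 0.171; 0.00986 without that library). The last step was 2.63-fold upward (2.50 to 2.76; adjusted p = 7.97e-06, limma).

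Kcnj11 (ENSMUSG00000096146, chromosome 7, 46093953 to 46100764, minus strand) encodes the pore of the same channel and lies 3758 bases from Abcc8. Its level climbed from 0.316 ± 0.0690 FPKM at E11.5 to 4.33 ± 0.0917, 6.40 ± 0.01001 and 9.26 ± 0.330 FPKM at the next 3 stages. No libraries of different stages overlapped, and each step was upward. From E13.5 to E15.5 the gene rose 1.48-fold (1.31 to 1.66; adjusted p = 0.000758, limma), a direction that turned when all stages were given the same total FPKM (log2 difference -0.0529). From E15.5 to E18.5 it rose 1.45-fold (1.30 to 1.61; adjusted p = 0.000478, limma), the smallest last step of the 9.

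The subunits of the channel did not keep a fixed ratio. In stage order, Abcc8 stood at 1.998, 2.97, 1.76 and 3.19 times the level of Kcnj11. The 2 libraries of E13.5 gave 2.88 and 3.07, those of E15.5 gave 1.87 and 1.64, and those of E18.5 gave 3.10 and 3.29, so the E15.5 ratio lay below those of both neighbouring stages in both libraries. At E11.5 the libraries gave 2.45 and 1.67 from 18 and 24 reads of Kcnj11, a range that overlapped E15.5. An annotated antisense transcript, Gm45486, lies within Abcc8 but shares none of its exon bases.

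**Figure D2:**
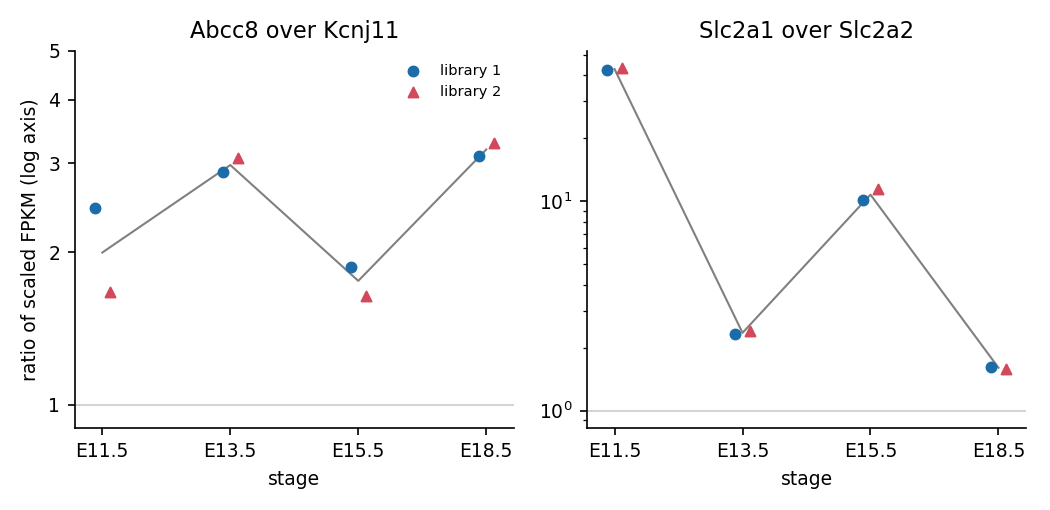
Ratio of scaled FPKM (y axis, log scale) of Abcc8 to Kcnj11 and of Slc2a1 to Slc2a2 at each stage (x axis); circles and triangles are the 2 libraries and the line joins the ratios of the means. The first ratio moved between 1.76 and 3.19, and the second was lowest at E13.5 (2.35) and E18.5 (1.60).

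G6pc2 (ENSMUSG00000005232, chromosome 2, 69211073 to 69227841, plus strand) was among the genes with the largest last step. It went from 0.112 ± 0.00187 FPKM at E11.5 to 3.17 ± 0.0578 at E13.5, then 5.71 ± 0.341 at E15.5 and finally 73.1 ± 0.0180 at E18.5. Each E11.5 library held 4 of its reads. The libraries of the stages did not overlap, and 3698 of its reads came from the E18.5 libraries against 270 at E15.5. The last step was 12.8-fold (11.3 to 14.6; log2 difference 3.47, SE 0.0496, adjusted p = 5.09e-07, limma).

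Slc30a8 (ENSMUSG00000022315, chromosome 15, 52295553 to 52335798, plus strand), the granule zinc transporter, had the highest level of the 9 at E18.5. It stood at 0.112 ± 0.00187 FPKM in the E11.5 sample, 1.05 ± 0.131 in the E13.5 sample, 4.21 ± 0.169 in the E15.5 sample and 87.5 ± 1.504 in the E18.5 sample. Reads in the 2 libraries together were 8, 74, 200 and 4418, and no stages overlapped. Its last step was 20.8-fold (18.03 to 24.1; log2 difference 4.09, SE 0.0598, adjusted p = 5.09e-07, limma), and the step before it 4.02-fold (3.06 to 5.32; adjusted p = 1.86e-05, limma). Against the channel gene Abcc8, Slc30a8 went from 0.0814 times its level at E13.5 to 0.375 times at E15.5 and 2.96 times at E18.5.

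Ucn3 (ENSMUSG00000044988, chromosome 13, 3940688 to 3945349, minus strand), the maturity marker, had no reads in either E11.5 library. Its later levels were 0.684 ± 0.166 FPKM at E13.5 (16 and 20 reads), 1.45 ± 0.251 by E15.5 (31 and 21 reads) and 11.46 ± 0.113 at E18.5 (216 and 218 reads). Libraries of the 4 stages did not overlap, and the gene was detectable from E13.5 on at this depth. Against a floor of 3 reads over both E11.5 libraries it was at least 12.2-fold higher at E13.5 and at least 204.6-fold higher at E18.5. The last step was 7.90-fold (5.92 to 10.8; adjusted p = 5.45e-06, limma).

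Sytl4 (ENSMUSG00000031255, chromosome X, 133936385 to 133981812, minus strand), the granule docking gene, began at 0.152 ± 0.124 FPKM (E11.5), reached 0.667 ± 0.00459 by E13.5 and 2.15 ± 0.252 by E15.5, and ended at 16.8 ± 0.756 (E18.5). The E11.5 libraries differed from each other, with 6 and 22 reads, and both were below every later library. Each step was upward, the last by 7.81-fold (6.88 to 8.90; adjusted p = 4.11e-06, limma).

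Glp1r and Trpm5 were low at every stage. Both entered the test only because of their E18.5 level, so the tests of their rise to E18.5 add little. Glp1r (ENSMUSG00000024027, chromosome 17, 30901817 to 30940791, plus strand) had 5, 2 and 3 reads in the 2 libraries together at E11.5, E13.5 and E15.5 and 94 at E18.5, where its level was 2.48 ± 0.738 FPKM from 57 and 37 reads. The earlier stages overlapped one another, and both E18.5 libraries lay above all of them. The last step was 27.3-fold with a wide counting interval (9.06 to 134.7; log2 difference 1.66, SE 0.158, adjusted p = 0.000146, limma). The values of this gene came out as whole reads for a model of 1480 bases and not for the 5811 exon bases annotated, so its level against other genes depends on that length. Trpm5 (ENSMUSG00000009246, chromosome 7, 143069153 to 143094642, minus strand) went from 0.108 ± 0.00430 FPKM at E11.5 to 0.105 ± 0.00913 at E13.5, then 0.361 ± 0.0642 at E15.5 and finally 1.38 ± 0.134 at E18.5. It did not differ detectably between E11.5 and E13.5 (ratio 0.970, counting interval 0.530 to 1.77) and rose in the last step by 3.82-fold (2.83 to 5.23; adjusted p = 0.000122, limma). Its exons share 220 bases (3.44%) with Tssc4 on the other strand, which was at 70.7 to 93.7 FPKM, and the sources used here do not say whether the counting used strand. Trpm5 is also known from tuft cells. Of 7 tuft cell markers, 4 were measured, and the sum of the 7 was highest at E11.5 (22.01 FPKM) and 2.37 to 3.35 FPKM later. Pou2f3, the factor that defines those cells, was at 0.0505 FPKM at E18.5. The part of tuft cells in the course of Trpm5 was not tested.

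Counted together, 6 of the 9 genes (Slc2a2, Abcc8, G6pc2, Slc30a8, Ucn3 and Sytl4) were higher by the rule of size between E15.5 and E18.5 and none was lower, where 7.3% of all genes measured were higher and 6.26% lower. By limma, with p-values adjusted over 13013 genes, all 9 rose in that step, where 38.5% of all genes tested rose and 29.2% fell. Glp1r and Trpm5 were among the genes tested only because of their E18.5 level. Their rise to E18.5 was thus close to given by the filter and adds little to the count. The median log2 difference of the 9 was 2.35, against 0.06 over all genes tested. In the step from E13.5 to E15.5, limma found that 6 rose and 2 fell (Slc2a2 and Abcc8), where 28.1% of genes rose and 26.4% fell. That count holds the narrow call of Abcc8, and Trpm5's rise in that step (adjusted p = 0.0139, limma) did not pass without either E13.5 library or without the second E15.5 library (adjusted p 0.0538 to 0.0624). Between E11.5 and E13.5, 2 genes (Abcc8 and Slc2a2) were higher by the rule of size (6.6% of all genes higher, 6.44% lower), and limma found that 7 rose and none fell, with Glp1r and Trpm5 not passing (30.1% of genes rose and 37.3% fell). From E11.5 to E18.5, 7 genes were higher by the rule of size, the 6 above and Kcnj11 (11.2% of all genes higher, 8.52% lower). There limma found that all 9 rose, with the same limit for Glp1r and Trpm5 (36.7% of genes rose and 37.6% fell).

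The last step came as most markers of each group of hormone cells went up. By the rule of size, 4 of 6 beta cell and 4 of 6 alpha cell markers were higher. So were 4 of 4 delta, PP and epsilon cell markers, and none of the 3 groups held a lower one (7.3% of all genes were higher, 6.26% lower). Pdx1, Nkx6-1, Irx1 and Ttr did not pass the rule. The summed insulin genes Ins1 and Ins2 went from 37.2 FPKM at E13.5 to 763.0 at E15.5 and 7509 at E18.5, a last step of 9.84-fold. The geometric mean of 4 genes shared by endocrine cells (Chga, Pax6, Isl1 and Rfx6) went from 21.1 to 15.7 and 68.2 FPKM, a last step of 4.35-fold. The 6 alpha cell markers summed to 2764, 1940 and 16351 FPKM, and the somatostatin gene Sst went from 1.06 to 120.3 and 3938 FPKM. Slc30a8, G6pc2 and Slc2a2 had counting intervals wholly above the insulin fold. Ucn3 and Glp1r had intervals that held it, and Sytl4, Trpm5, Abcc8 and Kcnj11 had intervals below it. Against the endocrine reference, Abcc8 and Kcnj11 took a smaller step and Trpm5 one that its interval could not separate from it. The other 6 took a larger one. The genes of that reference did not move alike. Pax6 rose 2.86-fold (2.67 to 3.07) and Rfx6 3.03-fold (2.75 to 3.35), while Chga went from 96.9 to 1126 FPKM. The interval of Abcc8 (2.50 to 2.76) overlapped those of Pax6 and Rfx6, so its smaller step depends on the mix of the reference. That of Kcnj11 (1.30 to 1.61) lay below both. Apart from that of Slc30a8, the larger steps depend on the mix too. Chga rose by more than the intervals of Ucn3 (5.92 to 10.8) and Sytl4 (6.88 to 8.90). Those of G6pc2 (11.3 to 14.6), Slc2a2 (10.3 to 13.6) and Glp1r (9.06 to 134.7) held its rise. That of Slc30a8 (18.03 to 24.1) lay above it. The share of each hormone cell type in the last step was not tested. These references are single folds with no test of the difference, and several of the 9 genes are also expressed outside beta cells.

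**Figure D3:**
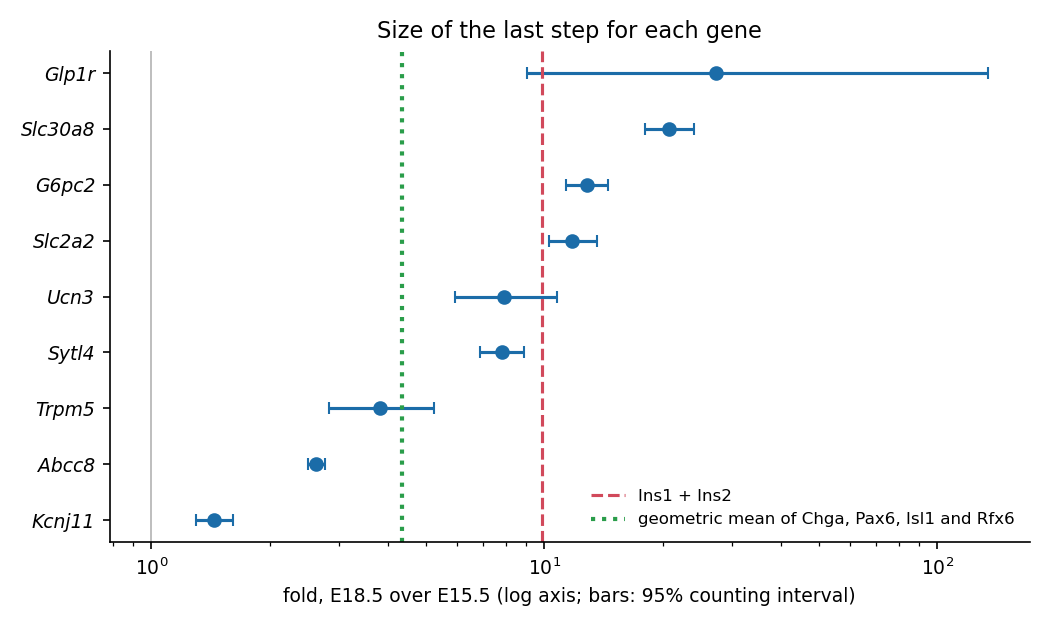
Fold of scaled FPKM at E18.5 over E15.5 for each gene (x axis, log scale; points are ratios of stage means and bars 95% counting intervals). The dashed line is the fold of summed Ins1 and Ins2 (9.84) and the dotted line that of the endocrine reference (4.35); Kcnj11 (1.45) and Abcc8 (2.63) lie left of both, Slc30a8 (20.8), G6pc2 (12.8) and Slc2a2 (11.8) right of both.

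Relative to the endocrine reference, the genes fell into different courses. Over the last 3 stages Abcc8 stood at 61.1%, 71.8% and 43.3% of it and Kcnj11 at 20.6%, 40.9% and 13.6%, both highest at E15.5. For Abcc8 both moves depend on the mix of the reference, the later fall as above. Between E13.5 and E15.5 its fold was 0.873 (0.828 to 0.921), near that of Pax6 (0.871, 0.807 to 0.938). Rfx6 fell further (0.561, 0.507 to 0.620). Trpm5 stood at 0.496%, 2.30% and 2.02%, and its counting interval could not separate E15.5 from E18.5. Slc2a2 stood at 28.9%, 9.97% and 27.0%, back at E18.5 near where it had been at E13.5. That return depends on the mix of the reference. From E13.5 to E18.5 Slc2a2 went from 6.08 to 18.4 FPKM. It rose by more than Rfx6 (9.86 to 16.8 FPKM) and Pax6 (4.48 to 11.2 FPKM) and by less than Chga (110.5 to 1126 FPKM). G6pc2 went from 15.03% to 36.4% and 107.2%, Slc30a8 from 4.98% to 26.9% and 128.3%, Sytl4 from 3.16% to 13.7% and 24.7%, Ucn3 from 3.24% to 9.26% and 16.8%, and Glp1r from 0.179% to 0.580% and 3.63%. The last-step rises of these genes, Slc30a8 apart, depend on the mix of the reference, as above. Against insulin the picture differed, since the insulin genes went up 20.5-fold between E13.5 and E15.5. By their means all 9 genes were lower relative to insulin (FPKM per 1000 FPKM of Ins1 and Ins2) at E15.5 than at E13.5, Abcc8 for example 14.7 against 346.0. Glp1r had 2 reads at E13.5 and 3 at E15.5. Its counting interval (0.276 to 28.9) held the folds of both references, so its direction in that step was not settled on either scale. From E15.5 to E18.5, 4 genes went up on this scale: Slc2a2 from 2.05 to 2.45, G6pc2 from 7.48 to 9.74, Slc30a8 from 5.52 to 11.7 and Glp1r from 0.119 to 0.330. The other 5 went down, Abcc8 from 14.7 to 3.93 and Kcnj11 from 8.39 to 1.23 among them. The last-step intervals of Glp1r and Ucn3 held the insulin fold, so the directions of both on this scale were not settled.

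**Figure D4:**
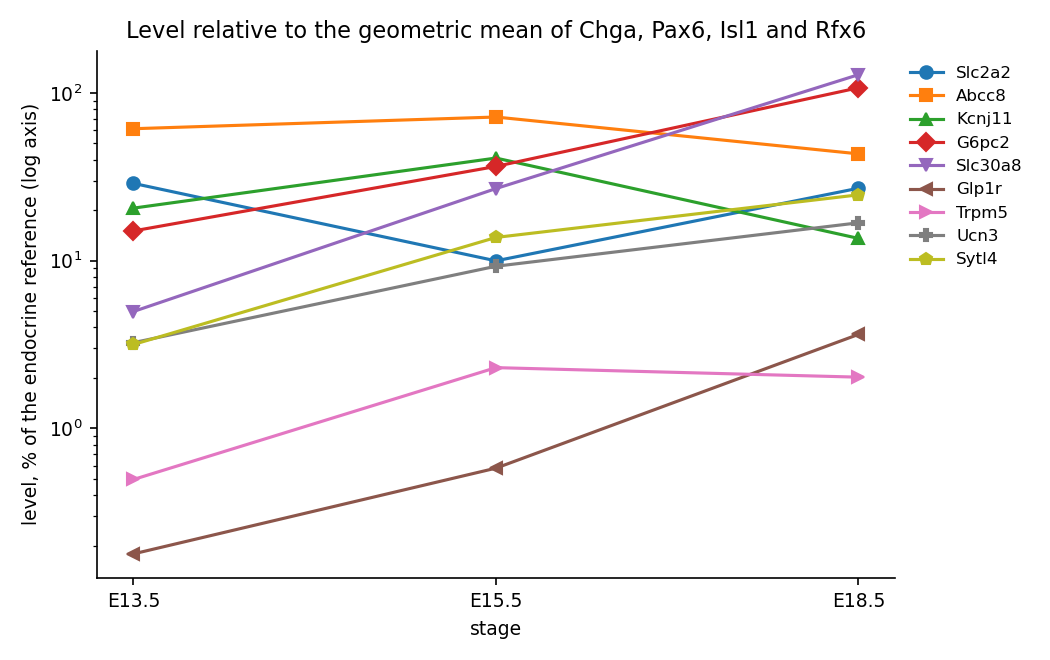
Level of each gene as a percent of the geometric mean of Chga, Pax6, Isl1 and Rfx6 (y axis, log scale) at E13.5, E15.5 and E18.5 (x axis), 1 point per stage mean. Slc30a8 (128.3%) and G6pc2 (107.2%) passed the reference at E18.5, while Slc2a2 dipped to 9.97% at E15.5 and Abcc8 and Kcnj11 were highest there. For Abcc8 that high point depends on the mix of the reference. Trpm5 at E15.5 (2.30%) could not be separated from E18.5 (2.02%).

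Other genes of the same pathways were followed in lists, whose last-step counts stand beside 7.3% higher and 6.26% lower by size, and 38.5% rising and 29.2% falling by limma, over all genes. As with Glp1r and Trpm5, the rise of a list gene measured only because of its E18.5 level adds little to these counts. In glucose entry and phosphorylation, 14 of 17 genes were measured; between E15.5 and E18.5, 3 were higher by the rule of size and 1 lower, and limma found that 8 rose and 2 fell. Among the higher ones were Slc37a4 (the transporter that carries glucose-6-phosphate to the enzyme family of G6pc2; 12.1 to 27.2 FPKM) and Pfkm (3.55 to 7.10 FPKM), and the lower one was Hkdc1, a hexokinase-like gene (8.24 to 2.93 FPKM). Hk1, a hexokinase gene kept low in mature beta cells, was at 4.83 FPKM at E11.5 and 0.139 to 0.260 FPKM later. In membrane excitability, 14 of 23 genes were measured, 1 was higher and none lower by size in the last step, and limma found that 10 of 13 tested rose and 1 fell. The potassium channel gene Kcnk16 (TALK-1) had the early course of Abcc8, at 0.383, 34.8, 33.1 and 48.9 FPKM, and Kcnh6 the dip of Slc2a2, at 0.552, 5.04, 2.11 and 6.24 FPKM.

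In incretin and cAMP signalling, the pathway of Glp1r, 16 of 27 genes were measured. In the last step 7 were higher by size and none lower, and limma found that 11 of 15 tested rose and 3 fell. Gpr119, a lipid receptor that raises cAMP, went from 0.912 to 13.04 FPKM, the fatty acid receptor gene Ffar1 from 2.25 to 10.4 FPKM, the glucagon receptor gene Gcgr from 0.746 to 5.72 FPKM, and Adra2a, an adrenergic receptor that lowers cAMP, from 1.65 to 8.32 FPKM. Gipr, the receptor of the other incretin, was at 11.3 FPKM at E18.5 against 2.48 FPKM for Glp1r. In zinc handling, the pathway of Slc30a8, 14 of 16 genes were measured, 1 was higher and 2 were lower by size in the last step, and limma found that 4 of 12 tested rose and 3 fell, shares near those of all genes tested (38.5% and 29.2%). The importer gene Slc39a4 went from 1.72 to 16.3 FPKM, and the metallothionein genes Mt1 and Mt2 went down from 393.9 to 158.0 and from 13.9 to 2.86 FPKM. No other Slc30a gene of the list reached the level of Slc30a8 at E18.5, the highest being Slc30a6 at 12.1 FPKM.

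In granule docking and exocytosis, the machinery around Sytl4, 24 of 30 genes were measured. In the last step 12 were higher by size and none lower, and limma found that 21 of 23 tested rose and none fell, with a median log2 difference of 1.05. Syt13, a synaptotagmin family gene, went from 16.6 to 91.3 FPKM, Rab3b from 3.36 to 20.8 FPKM, the membrane fusion gene Snap25 from 0.821 to 6.48 FPKM and Rph3al, a Rab effector gene, from 12.2 to 43.3 FPKM. Rab27a, the gene of the GTPase that granuphilin binds, went from 3.22 to 7.80 FPKM. Of 10 markers of neurons, neural crest and glia, 3 were higher by size in the last step (Gap43, Snap25 and Tubb3) and none was lower, and their summed level went from 13.8 to 58.4 FPKM. The part of such cells in the list's course was not tested. In the step before, 2 genes of the list were higher by size, 2 lower and 20 neither, and limma found that 6 of 23 rose and 11 fell, beside 28.1% and 26.4% of all genes tested. Of the urocortin and CRH list, 1 of 6 genes was measured, the receptor gene Crhr2 at 1.85 FPKM at E18.5, and the related peptide genes Crh, Ucn and Ucn2 were listed at 0 there.

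Of 21 genes linked to beta cell maturation, 18 were measured, and in the last step 9 were higher by size and none lower. Limma could test 12, since the other measured genes, Ins1, Ins2 and Iapp among them, could not be split into libraries at every stage. It found that 11 rose and 1 fell. Ins1, Ins2 and Iapp (islet amyloid polypeptide, released with insulin) were among the higher ones, and Cox6a2, a respiratory chain gene listed at 0 at E13.5 and E15.5, was at 7.18 FPKM at E18.5. Cox6a2 was measured only because of its E18.5 level, so its rise was close to given and adds little to these counts. Mafa, a factor of mature beta cells, was at 0.0908, 0.373, 1.16 and 6.18 FPKM in stage order. Pdx1 and Nkx6-1, the factors of beta cell identity, did not pass the rule in that step (60.6 to 77.4 and 37.8 to 42.7 FPKM). Both rose slightly by limma (log2 difference 0.35 and 0.17, adjusted p = 0.0131 and 0.0206, limma). Of 19 genes listed as kept low in mature beta cells, 18 were measured, 4 were higher and 1 was lower by size in the last step, and limma found that 7 of 15 tested rose and 4 fell, beside 38.5% and 29.2% of all genes tested. The list's median log2 difference, 0.07, was near that of all genes tested, 0.06. Among the higher ones were the neuropeptide gene Npy (15.3 to 44.3 FPKM), the chemokine gene Cxcl12 (6.92 to 42.5 FPKM) and Ndrg2 (12.8 to 28.0 FPKM).

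**Figure D5:**
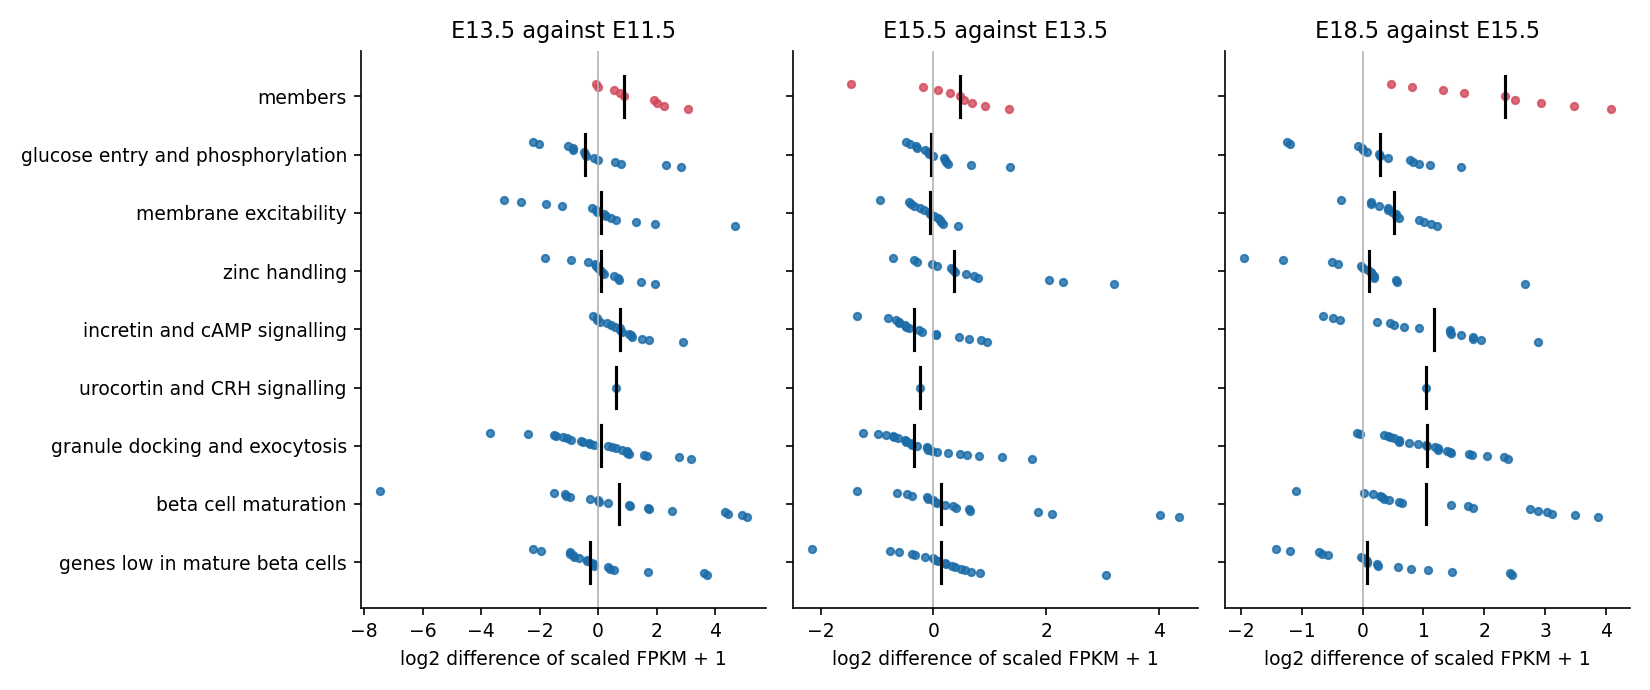
Log2 difference of scaled FPKM + 1 (x axis) for every measured gene of each list (rows; points are genes and the vertical bar their median) in 3 steps. In the last step the median of the 9 genes described here was 2.35 and that of granule docking and exocytosis 1.05, while that of genes low in mature beta cells was 0.07.

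For the 7 genes that reached 5 FPKM, the genes of nearest course were looked for among 7820 genes that did so too, by the root mean square difference of log2 levels centred over the 4 stages. Nearest to Slc2a2 were Agt, Gpr119 and Degs2 (distances 0.16, 0.21 and 0.25), which share its dip at E15.5; Agt, the angiotensinogen gene, was at 1.59, 13.1, 4.67 and 31.2 FPKM. Nearest to Abcc8 were Gch1, Pla2g2f and Baiap3 (0.09 to 0.17), with Gch1, which encodes the first enzyme of tetrahydrobiopterin synthesis, at 1.19, 20.5, 16.4 and 39.2 FPKM. Nearest to Kcnj11 were Neu2, Nrtn and Nudt19 (0.11 to 0.13). For G6pc2 they were Scg2, Tinagl1 and Chga (0.31 to 0.37), and for Slc30a8 Scg2, Sult1c2 and Ppp1r1b (0.26 to 0.38); Scg2, which encodes a granule protein of endocrine cells, was at 4.93, 11.2, 25.9 and 322.6 FPKM. Fmo1 was nearest to both Ucn3 (0.05) and Sytl4 (0.17), followed by Cxcl12 and Osgin1 for Ucn3 and by Ucn3 and AU021092 for Sytl4. A distance over 4 stages describes a shared course in these samples.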

How the data were processed

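Total RNA of fetal mouse pancreas was sequenced, 1 sample per stage. HISAT2 2.0.5 and mm10 are named in the submitters' processing notes; the sources used here name no counting tool or annotation. Values are FPKM as deposited, 1 per gene; per the file headers they are averages. Symbols and exon lengths came from GENCODE M21.

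FPKM times exon length is a sum of whole reads over 2 denominators per stage. Means were split where 1 pair of whole reads gave the value within 0.75 of its last printed place, allowing for rounding; 96.2% to 96.5% of genes attempted were split. For 553 of 638 genes tried, Glp1r included, another length was inferred. The spread between a stage's libraries was 1.22 to 1.33 times counting error. The splitting and the limma fit were tested on simulated data.

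Scaling factors were medians of ratios over 9884 genes (0.988, 1.03, 1.03 and 0.962 in stage order). The rule of size asked for a 2-fold difference or more and for 5 FPKM or more in the higher stage. Splitting gave limma 3.58.1 (R 4.3.3) 8 libraries and 13013 genes, fitted with a mean-variance trend on log2(scaled FPKM + 1), with Benjamini-Hochberg adjustment and a threshold of 0.05; no count test was the main result. Intervals are exact at 95% and the floor for 0 reads is 3 reads. The members and lists were chosen with earlier results of these data known. List genes were named by size: up to 4 past the rule, taken by size of difference, and up to 2 most abundant, and a selection of these is described. The ratios other than Abcc8 to Kcnj11 and those to insulin and to the endocrine reference, and the genes Hk1, Slc2a1, Gipr, Rab27a, Slc30a6, Crh, Ucn, Ucn2 and Ndrg2, were chosen after their values were seen. Some listed genes are not reported here.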

Additional observations from a re-analysis of the deposited data

How the results depend on the processing

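The count of genes past the rule of size depended on its minimum. With the minimum at 1 FPKM it was 5 between E11.5 and E13.5 and 4 between E13.5 and E15.5, and with 10 FPKM it was 1 and 0, against 2 and 1 as reported; a fold of 1.5 gave 2 for the second of these steps. Asking limma for a 2-fold difference as well left 4 of 7 calls between E11.5 and E13.5 and 2 of 8 between E13.5 and E15.5. Leaving out each library in turn gave 7 to 7, 6 to 8, 9 to 9 and 9 to 9 calls for the 4 comparisons; where a stage was left with 1 library, it was assumed to vary like the others. The call for Abcc8 between E13.5 and E15.5 was lost with a pseudocount of 0.1 FPKM (adjusted p = 0.0584, limma) and without the trend (adjusted p = 0.0580, limma). Giving all stages the same total FPKM moved the median of all genes by -0.11, -0.41, 0.11 and -0.46 (log2, comparisons in the order E13.5 against E11.5, E15.5 against E13.5, E18.5 against E15.5, E18.5 against E11.5) and turned Kcnj11 between E13.5 and E15.5 to -0.0529. Without scaling, Trpm5 between E11.5 and E13.5 turned from -0.00425 to 0.00117, both smaller than the spread between its libraries. Of 18 log2 folds relative to insulin, 10 turned in sign when taken relative to the endocrine reference and 8 kept their sign. Between E13.5 and E15.5 the log2 values became 0.23 for Abcc8, 0.99 for Kcnj11, 1.28 for G6pc2, 2.43 for Slc30a8, 1.70 for Glp1r, 2.21 for Trpm5, 1.51 for Ucn3 and 2.12 for Sytl4, and between E15.5 and E18.5 they became 0.86 for Ucn3 and 0.84 for Sytl4. No paired analysis was possible because each stage has 1 sample and the recovered libraries carry no numbers of their own. Depth limits Glp1r before E18.5 (2 to 5 reads) and Ucn3, G6pc2 and Slc30a8 at E11.5 (0 to 8 reads).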
